A study of Mus musculus with 9 samples.

Results

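The genes described here are 6 genes tied to lymphatic vessels and to the chemokines of lymphoid tissue, Ccl21a, Ccl19, Prox1, Flt4, Reln and Mmrn1, of 19505 genes named on the array. They were chosen by name, and each is represented by its transcript cluster, the set of probes summarised into one value; all 6 were measured and each had 1 cluster. Ccl21a was chosen because its level on the arrays of ob/ob mice was low, so its difference from wild type is given as a description with no test, and the same holds for its gene copies.

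RNA of white fat from male mice was hybridized to Clariom S mouse arrays, 3 arrays in each of 3 groups, with 3 mice a group per the series' text. The VE group was C57BL/6JHamSlc-ob/ob animals that received Vigna umbellata (rice bean) extract at 100 mg/kg by oral gavage. The ob/ob vehicle group was the same strain given vehicle, and the wild type group was C57BL/6JHamSlc-+/+ mice given vehicle. Treatment lasted 42 days, all mice ate standard chow, and they were 6 weeks old on arrival, before a period of acclimatization. Both ob/ob groups lack functional leptin from birth, and VE was given to ob/ob mice only. The fat depot was not stated.

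Lymphatic capillaries drain fluid, lipid and immune cells from fat. Their endothelium is specified by the transcription factor Prox1 and grows in response to the ligands Vegfc and Vegfd through the receptor Flt4 (VEGFR3). It secretes Reln (reelin) and the adhesive protein Mmrn1 (multimerin), and it makes the chemokine Ccl21, of which Ccl21a is a gene copy. Together with Ccl19, Ccl21 draws dendritic cells and T cells bearing the receptor Ccr7 into lymphatics and lymph nodes. Stromal cells of lymph nodes, some of which lie within fat depots, also make these chemokines.

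The mouse genome holds several near-identical copies of the Ccl21 gene, and Ccl19 lies beside Ccl21a on chromosome 4, with starts 17626 bases apart. The promoters of Ccl21a, of its copy Gm13304 and of Ccl19 are shown because the copies Ccl21a and Gm13304 were both lower on every ob/ob array than on every wild type array, while the neighbour Ccl19 was not. Each is 300 bases in RefSeq on GRCm38.p6, from 250 bases before the start of the gene to 50 after, at chr4:42773942-42774241 on the minus strand for Ccl21a, chr4:42114537-42114836 on the plus strand for Gm13304 and chr4:42756316-42756615 on the minus strand for Ccl19. Capitals mark the bases at which Ccl21a and Gm13304 differ, and the Ccl19 sequence has none because it was not compared base by base.
Ccl21a: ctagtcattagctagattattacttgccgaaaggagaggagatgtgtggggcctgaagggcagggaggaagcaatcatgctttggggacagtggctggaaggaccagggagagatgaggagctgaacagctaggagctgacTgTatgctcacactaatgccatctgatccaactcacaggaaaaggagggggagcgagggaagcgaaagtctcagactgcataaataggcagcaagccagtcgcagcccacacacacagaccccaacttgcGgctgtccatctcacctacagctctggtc
Gm13304: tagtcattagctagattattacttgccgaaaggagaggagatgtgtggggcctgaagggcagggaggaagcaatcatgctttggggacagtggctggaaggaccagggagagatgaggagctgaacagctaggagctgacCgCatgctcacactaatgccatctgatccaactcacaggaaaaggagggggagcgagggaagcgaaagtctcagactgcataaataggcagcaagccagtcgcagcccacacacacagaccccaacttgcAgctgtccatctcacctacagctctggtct
Ccl19: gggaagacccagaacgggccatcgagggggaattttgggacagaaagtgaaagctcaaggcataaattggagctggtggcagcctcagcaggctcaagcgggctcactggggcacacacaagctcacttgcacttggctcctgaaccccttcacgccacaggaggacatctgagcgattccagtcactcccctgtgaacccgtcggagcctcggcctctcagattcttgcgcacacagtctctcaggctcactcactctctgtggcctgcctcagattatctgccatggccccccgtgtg
Set against each other with an offset of 1 base, the Ccl21a and Gm13304 promoters shared 296 of 299 bases, with 3 differences. Promoter entries matched all 6 genes. By their identifiers, the measured clusters of Ccl21a and Ccl21c lie on chromosome 4 scaffolds labelled random. Those of Ccl19 and Gm13304 are labelled chromosome 4 alone. Whether the Ccl21a signal comes from the locus of the printed promoter was not tested.

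Values are log2 signals as deposited, and array medians lay between 6.11 and 6.26. The arrays of VE mice correlated with each other at r of 0.982 to 0.988 and those of ob/ob vehicle mice at 0.980 to 0.987, while the wild type arrays correlated at 0.933 to 0.956. Wild type arrays 1 and 2 stood apart in markers of other tissues. The mean of 14 epithelial markers was 4.55 to 5.0 on VE arrays and 4.83 to 4.85 on ob/ob vehicle arrays, against 9.80, 10.22 and 7.90 on wild type arrays 1, 2 and 3. That of 8 smooth muscle markers was 7.55 to 7.60 on VE arrays and 7.43 to 7.70 on ob/ob vehicle arrays, against 10.49, 14.14 and 8.30 on wild type arrays. Macrophage markers went the other way, and the mean of 11 of them was 12.09 to 12.42, 11.96 to 12.34 and 6.87 to 8.05 in VE, ob/ob vehicle and wild type mice. Adipocyte markers averaged 17.42 to 17.75, 17.02 to 17.50 and 15.80 to 17.34, with the lowest value on wild type array 2. The part of these other cells in the results below was not tested beyond the values given. Lep, which carries the ob mutation, read 18.75 to 19.02 on VE arrays and 18.77 to 19.24 on ob/ob vehicle arrays, against 13.22 to 16.72 on wild type arrays, and a transcript signal does not check a nonsense mutation.

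Ccl21a was the gene of the 6 that differed most between the groups. It read 9.67, 5.74 and 5.55 on VE arrays, 7.22, 6.80 and 10.35 on ob/ob vehicle arrays and 11.46, 12.05 and 13.04 on wild type arrays. Every ob/ob array, with or without VE, lay below every wild type array, and one array in each ob/ob group, VE array 1 and ob/ob vehicle array 3, lay far above its group's other arrays. Group means were 6.99 ± 2.33, 8.12 ± 1.94 and 12.18 ± 0.80 in VE, ob/ob vehicle and wild type mice (SD, n = 3 each). The mean difference from wild type was −5.20 for VE mice, a 36.7-fold lower signal, and −4.06 for ob/ob vehicle mice, a 16.7-fold lower signal.

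Leaving out each array in turn moved the difference between VE and wild type mice from −6.54 to −4.48 and that between ob/ob vehicle and wild type mice from −5.17 to −3.40. Without wild type arrays 1 and 2, these differences were −6.05 and −4.92. The array with the lowest epithelial and smooth muscle signal among wild type mice, array 3, had the highest Ccl21a signal. Its epithelial mean, 7.90, still lay above the 4.55 to 5.0 of VE arrays and the 4.83 to 4.85 of ob/ob vehicle arrays. Ccl21a was chosen on these values, so they are a description, and the part of other tissue in them was not tested. VE mice did not differ from ob/ob vehicle mice beyond the spread of the arrays, at −1.14 ± 1.16 (SE, n = 3 each; 95% confidence interval −3.72 to 1.44; limma adjusted p = 1.00), and leaving out each array gave −2.48 to −0.02. In whole tissue, fewer cells of a type and less RNA per cell cannot be told apart.

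**Figure D1:**
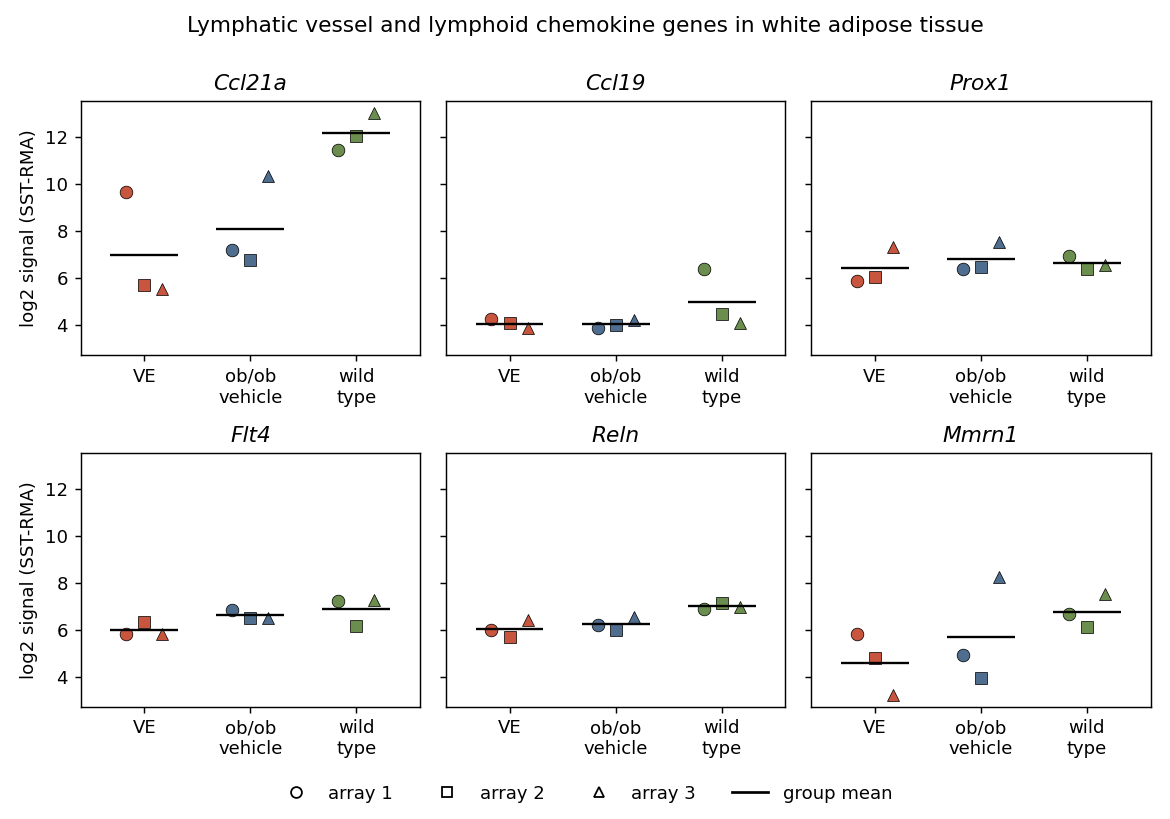
Log2 signal (y axis) of the 6 genes on each array of the VE, ob/ob vehicle and wild type groups (x axis), with circles, squares and triangles for arrays 1, 2 and 3 and a line at each group mean. Ccl21a on wild type arrays, at 11.46 to 13.04, lies above all ob/ob arrays, and its 2 highest ob/ob arrays are VE array 1 and ob/ob vehicle array 3.

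The copies of the gene also lay lower on every ob/ob array than on every wild type array. Ccl21b and Ccl21c had identical values on 9 of 9 arrays, and they lay within 0.49 to 0.71 of Ccl21a on each array. Ccl21b read 10.19, 5.03 and 4.99 on VE arrays, 6.64, 6.20 and 10.87 on ob/ob vehicle arrays and 12.02, 12.63 and 13.53 on wild type arrays. Gm13304, whose promoter is printed above, read 10.64, 5.27 and 4.63 on VE arrays, 4.79, 5.81 and 11.41 on ob/ob vehicle arrays and 11.88, 12.40 and 13.60 on wild type arrays. Gm13304 lay 0.35 to 2.43 from Ccl21a, farthest on ob/ob vehicle array 1, and was not among the 5 genes most like it. VE array 1 and ob/ob vehicle array 3 were again the high ob/ob arrays. The difference of VE from wild type was −5.99 for Ccl21b and −5.78 for Gm13304, and that of ob/ob vehicle from wild type was −4.82 and −5.29. Ccl21b and Ccl21c, identical on every array, count as 1 measurement. Whether probes of Ccl21a, Ccl21b and Gm13304 overlap was not tested, so these may not be independent measurements.

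Among all named genes, those most like Ccl21a over the 9 arrays, after its copies Ccl21b and Ccl21c, were Retnla, C7 and Penk. Likeness was the mean absolute difference between values centred on each gene's own mean, and it was 0.57 for the copies, 0.76 for Retnla, 0.77 for C7 and 0.92 for Penk. Retnla, a secreted protein of alternatively activated macrophages and adipose tissue, read 12.52, 8.30 and 8.37 on VE arrays, 11.78, 6.75 and 12.20 on ob/ob vehicle arrays and 14.33, 14.34 and 15.86 on wild type arrays. C7, a component of the complement membrane attack complex, read 11.10, 9.75 and 10.13 on VE arrays, 8.92, 9.44 and 12.89 on ob/ob vehicle arrays and 13.61, 14.84 and 16.29 on wild type arrays. Penk, the precursor of enkephalin peptides, read 9.44 to 11.19 on VE arrays, 8.50 to 10.80 on ob/ob vehicle arrays and 13.83 to 15.86 on wild type arrays. All 3 had their highest value on wild type array 3, as Ccl21a did, and no ob/ob array reached a wild type array. They were named for likeness to Ccl21a over these same arrays, so this follows from the choice and is no test.

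Over the 6 ob/ob arrays alone, a comparison added after the data were seen, Pi16 (0.43) and Lyve1 (0.45) were closer to Ccl21a than its copies (0.50). Pi16 marks progenitor fibroblasts of the connective tissue around fat, and Lyve1 is the hyaluronan receptor of lymphatic endothelium and of some tissue macrophages. Pi16 read 8.84, 5.63 and 6.01 on VE arrays, 6.92, 6.63 and 9.20 on ob/ob vehicle arrays and 7.10, 6.62 and 7.27 on wild type arrays. Lyve1 read 10.99, 8.76 and 7.52 on VE arrays, 8.64, 8.76 and 11.86 on ob/ob vehicle arrays and 7.37, 8.72 and 10.08 on wild type arrays. Both shared with Ccl21a the high values on VE array 1 and ob/ob vehicle array 3, which follows from naming them for likeness over these arrays. Their wild type values lay within the range of the ob/ob arrays or, for Lyve1 on array 1, below it.

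**Figure D2:**
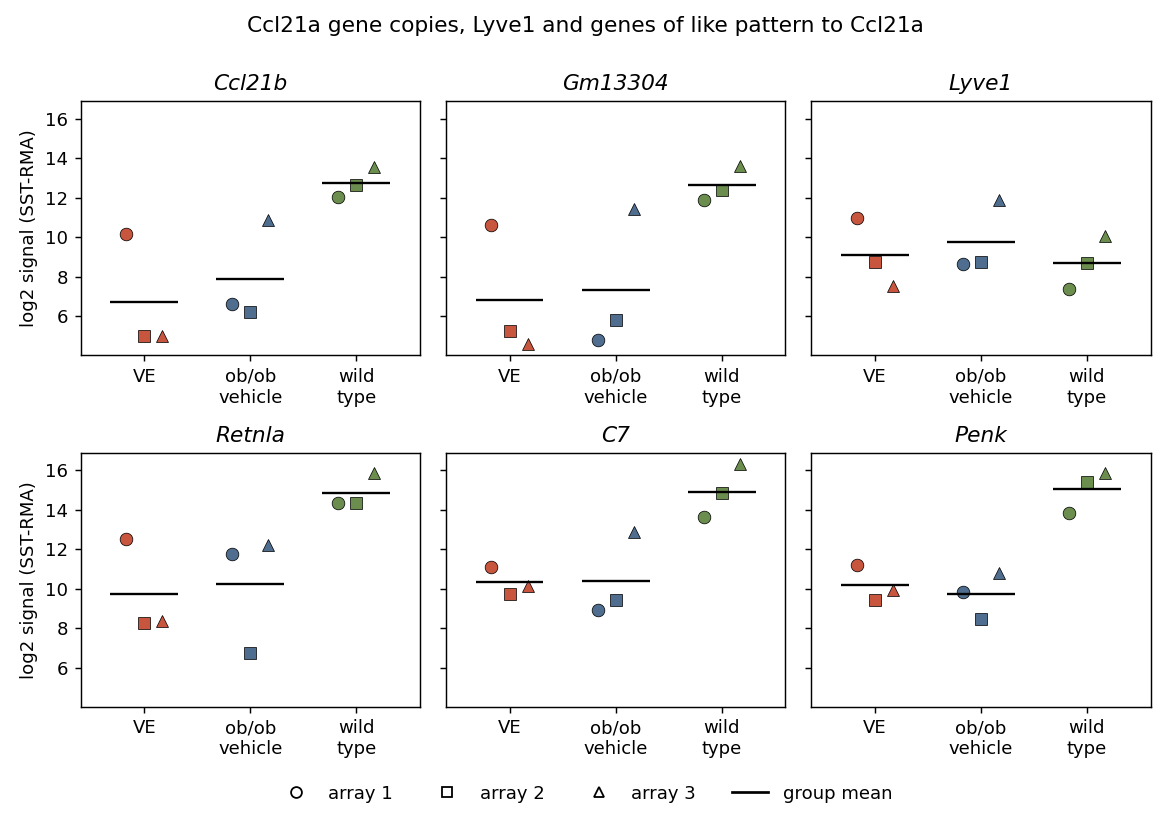
Log2 signal (y axis) of 2 Ccl21a copies, Lyve1 and 3 genes of like pattern on each array of the VE, ob/ob vehicle and wild type groups (x axis), with circles, squares and triangles for arrays 1, 2 and 3 and a line at each group mean. Lyve1 spans 7.37 to 10.08 on wild type arrays, within or below its ob/ob values, while the other genes have their wild type arrays above all ob/ob arrays.

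Ccl19, the other ligand of Ccr7, did not have the pattern of Ccl21a. It read 4.27, 4.11 and 3.87 on VE arrays, 3.91, 4.03 and 4.21 on ob/ob vehicle arrays and 6.41, 4.48 and 4.09 on wild type arrays. Wild type array 1 alone was high, and the other arrays lay near or below the lower quartile of all clusters, which was 4.21 to 4.61. VE and ob/ob vehicle mice differed by 0.03 ± 0.50 (95% confidence interval −1.08 to 1.15). The ob/ob vehicle group did not differ from wild type past the threshold, at −0.94 ± 0.50 (SE; 95% confidence interval −2.06 to 0.17; adjusted p = 0.253), and nor did the VE group, at −0.91 (adjusted p = 0.230). Without wild type arrays 1 and 2 the differences were −0.04 for ob/ob vehicle and −0.01 for VE mice. The genes most like Ccl19 were Sidt1 and Bglap, at 0.15 and 0.16, and both were high on wild type array 1 only, at 7.90 and 6.14.

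Among receptors and signals of the lymphoid chemokine system, Il7r, Cxcr4 and Tnfrsf11a rose in ob/ob mice. Of 21 measured genes of that list, left without the Ccl21 copies, 3 rose, 0 fell and 18 did not pass in ob/ob vehicle against wild type mice (median difference 0.30, against −0.04 over all clusters). In that comparison 9.02% of all clusters were called higher and 5.05% lower, and in VE against wild type mice 12.4% and 7.58%. Il7r, the interleukin 7 receptor of lymphocytes and lymphoid tissue inducer cells, read 12.19, 12.27 and 11.83 on VE arrays, 11.66, 12.90 and 12.37 on ob/ob vehicle arrays and 6.33, 4.62 and 5.57 on wild type arrays. It rose by 6.80 ± 0.44 in ob/ob vehicle mice against wild type (112-fold; adjusted p = 1.9e-05), and the groups lay far apart. Cxcr4, the receptor of Cxcl12, rose by 2.38 ± 0.35 (adjusted p = 0.00153), and Tnfrsf11a (RANK), the receptor of the cytokine Tnfsf11, rose by 1.50 ± 0.31 (adjusted p = 0.0097). All 3 also passed in VE against wild type mice, at 6.59, 2.57 and 1.42, and kept the call without wild type arrays 1 and 2 and without any single array. In VE against wild type mice 5 genes of this list rose and 1 fell. Of these, Ltbr (1.52), the adhesion molecule Vcam1 (1.40) and the sphingosine kinase Sphk1 (−0.75) lost the call without any one of 6, 7 and 7 of the 9 arrays, and all 3 lost it without wild type arrays 1 and 2. Beside these, 10 of 11 macrophage markers rose in ob/ob vehicle mice, with a median of 4.71.

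The receptors that bind Ccl21a and Ccl19 did not pass in the fit over all arrays. Ccr7 read 5.93, 6.69 and 6.99 on VE arrays, 7.11, 6.90 and 6.78 on ob/ob vehicle arrays and 6.68, 7.01 and 7.44 on wild type arrays, and the 3 groups overlapped. Its difference was −0.11 ± 0.31 between ob/ob vehicle and wild type mice (adjusted p = 0.857) and −0.51 between VE and wild type mice (adjusted p = 0.287). Ackr4, which scavenges both chemokines without signalling, read 3.54 to 3.86 on the ob/ob arrays, with VE at 3.62 to 3.86, and 3.49 to 5.62 on wild type arrays, with a difference of −0.75 between ob/ob vehicle and wild type mice (adjusted p = 0.315). That difference was −1.22 to −0.16 when each array was left out, and it passed without wild type array 3 (−1.22, adjusted p = 0.0482). Ltbr, the lymphotoxin beta receptor, differed by 1.39 between ob/ob vehicle and wild type mice without passing (adjusted p = 0.0686), and leaving out wild type array 3 gave a call, at 1.91 (adjusted p = 0.00397).

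Prox1 did not separate the groups. It read 5.88, 6.06 and 7.35 on VE arrays, 6.40, 6.49 and 7.54 on ob/ob vehicle arrays and 6.96, 6.41 and 6.57 on wild type arrays. The groups overlapped in all 3 comparisons, and array 3 was the highest in each ob/ob group. The difference was −0.38 ± 0.43 between VE and ob/ob vehicle mice (95% confidence interval −1.34 to 0.58) and 0.16 ± 0.43 between ob/ob vehicle and wild type mice (−0.79 to 1.12; adjusted p = 0.850). That between VE and wild type mice was −0.22 (adjusted p = 0.760). The ob/ob vehicle difference from wild type turned to −0.20 without ob/ob vehicle array 3.

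Of 17 measured genes of lymphatic endothelial identity, Nrp2 and Piezo1 rose, Nr2f2 and Gata2 fell and 13 did not pass in ob/ob vehicle against wild type mice, with a median of −0.03. These 2 higher and 2 lower calls stand against 9.02% of all clusters called higher and 5.05% called lower. Whether so few calls differ from the share over the whole array was not tested. Nr2f2 (COUP-TFII), a venous and lymphatic regulator that acts with Prox1, read 10.51, 11.36 and 11.03 on VE arrays, 11.59, 10.95 and 11.15 on ob/ob vehicle arrays and 13.10, 14.98 and 13.24 on wild type arrays. It fell by 2.54 in ob/ob vehicle mice (SE 0.47; adjusted p = 0.00568), with no overlap between groups. Nrp2, the coreceptor of Flt4, rose by 1.42 ± 0.27 (adjusted p = 0.00707), and Piezo1, a mechanosensitive channel needed for lymphatic valves, rose by 1.10 ± 0.24 (adjusted p = 0.0132). Gata2, another valve regulator, was lower by 2.56 (adjusted p = 0.0342), a call that was lost without any one of 8 of the 9 arrays (adjusted p = 0.0527 to 0.108), all but wild type array 3.

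Without wild type arrays 1 and 2, 1 gene of this list rose and 1 fell: Nrp2 stood at 1.76 (adjusted p = 0.0133) and Nr2f2 at −2.01 (adjusted p = 0.0104), while Gata2 was at −0.53 and Piezo1 at 1.11 (adjusted p = 0.0751). In VE against wild type mice Piezo1 (1.31) and Hhex (1.07), a vascular homeobox factor, rose, and Nr2f2 (−2.81) and Gata2 (−3.11) fell. In that comparison 12.4% of all clusters were called higher and 7.58% lower. The call of Hhex was lost when any one of 6 arrays was left out, with adjusted p up to 0.0987, and that of Gata2 without wild type arrays 1 and 2 (−1.08, adjusted p = 0.0729). Lyve1 and the podoplanin gene Pdpn, the most used lymphatic markers beside Prox1, did not pass in any comparison. Lyve1 differed by 1.03 ± 1.06 between ob/ob vehicle and wild type mice (adjusted p = 0.588), and Pdpn by 0.51 ± 0.28 (adjusted p = 0.279).

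Flt4 was lowest in VE mice, without passing the threshold. It read 5.81, 6.35 and 5.82 on VE arrays, 6.86, 6.49 and 6.52 on ob/ob vehicle arrays and 7.22, 6.19 and 7.26 on wild type arrays. The VE arrays lay below all ob/ob vehicle arrays, while wild type array 2 lay within the range of the VE arrays. The difference between VE and ob/ob vehicle mice was −0.63 ± 0.32 (95% confidence interval −1.34 to 0.08; adjusted p = 1.00, unadjusted p = 0.0775). VE mice were lower than wild type by 0.90 without passing (SE 0.32; adjusted p = 0.0762), and a call was made when wild type array 2 was left out, at −1.25 (adjusted p = 0.0132), or wild type arrays 1 and 2 together, at −1.27 (adjusted p = 0.0354). Between ob/ob vehicle and wild type mice it was −0.27 ± 0.32 (adjusted p = 0.647).

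Of 17 measured growth factors of lymphatic vessels and their processing genes, Vegfd, Svep1, Adm and Angpt2 rose, Angpt1 and Pgf fell and 11 did not pass in ob/ob vehicle against wild type mice, with a median of 0.41. Over all clusters 9.02% were called higher and 5.05% lower. Vegfd, a ligand of Flt4, read 11.56, 11.11 and 10.67 on VE arrays, 12.07, 11.29 and 11.08 on ob/ob vehicle arrays and 9.29, 10.00 and 10.11 on wild type arrays. It rose by 1.68 ± 0.35 in ob/ob vehicle mice (adjusted p = 0.0108), with every ob/ob array above every wild type array, a call lost without wild type arrays 1 and 2 (1.37, adjusted p = 0.0916). Svep1, a matrix protein needed for lymphatic vessel remodelling, rose by 2.89 ± 0.51 (adjusted p = 0.00466; 1.56 without wild type arrays 1 and 2), and Adm, the adrenomedullin peptide that promotes lymphatic growth, by 1.59 ± 0.27 (adjusted p = 0.00363). Angpt2 rose by 1.55 ± 0.35 (adjusted p = 0.0156), a call lost without ob/ob vehicle array 1 (1.31, adjusted p = 0.059).

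Angpt1, the ligand that activates the endothelial receptor Tek, fell by 3.07 in ob/ob vehicle mice (SE 0.55; adjusted p = 0.00503), and Pgf, placental growth factor, fell by 1.95 (SE 0.36; adjusted p = 0.00583). Angpt1 read 7.47, 7.09 and 6.27 on VE arrays, 6.29, 7.13 and 8.18 on ob/ob vehicle arrays and 9.26, 10.78 and 10.76 on wild type arrays, so that no ob/ob array reached wild type. Vegfc, the main ligand of Flt4, did not pass, at 0.49 ± 0.26 (adjusted p = 0.258). Without wild type arrays 1 and 2, 2 genes of this list rose and 2 fell: Svep1 (1.56), Adm (1.94), Angpt1 (−3.56) and Pgf (−2.44) passed, while Vegfd and Angpt2 (0.90) did not. Of all clusters, 12.4% were called higher and 7.58% lower in VE against wild type mice. There Angpt2 (1.36), Svep1 (2.58) and Vegfd (1.31) rose, and Angpt1 (−3.32), Pgf (−2.47) and Vegfa (−1.26) fell. Of these 6, Svep1, Angpt1 and Pgf kept the call without any single array, and Angpt2, Vegfd and Vegfa lost it without 4, 3 and 8 of the 9 arrays taken singly. Without wild type arrays 1 and 2, Svep1 stood at 1.25 (adjusted p = 0.0446), and Angpt2 and Vegfd did not pass.

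**Figure D3:**
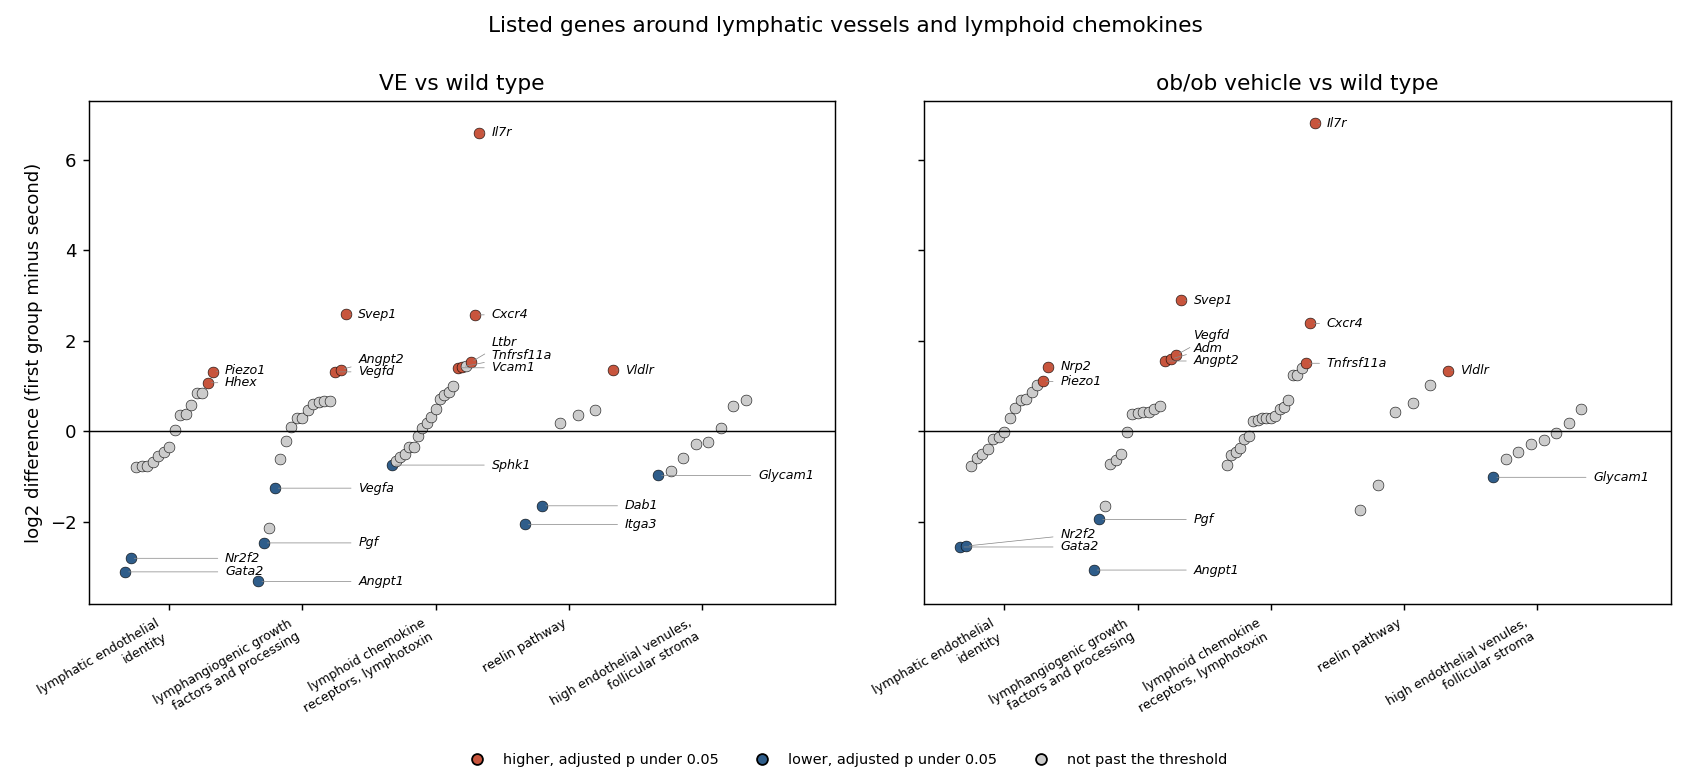
Log2 difference (y axis) of each measured gene of 5 lists (x axis), VE against wild type mice on the left and ob/ob vehicle against wild type mice on the right, 1 point a gene. Red and blue points passed an adjusted p under 0.05 as higher and lower; Il7r, at 6.59 and 6.80, is the highest point in both panels.

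Reln was the gene of the 5 not chosen by level that passed the test in one comparison, VE against wild type. It read 6.00, 5.72 and 6.41 on VE arrays, 6.20, 6.00 and 6.57 on ob/ob vehicle arrays and 6.91, 7.16 and 6.99 on wild type arrays. All 6 ob/ob arrays lay below all wild type arrays, within a narrow range. Reln fell by 0.98 in VE against wild type mice (1.97-fold; SE 0.25; 95% confidence interval −1.54 to −0.41; adjusted p = 0.0235), and was 0.76 lower in ob/ob vehicle mice without passing (SE 0.25; −1.33 to −0.20; adjusted p = 0.0760). The difference between VE and ob/ob vehicle mice was −0.21 ± 0.25 (−0.78 to 0.35). The call in VE mice was lost without VE array 1 (−0.95, adjusted p = 0.0766), VE array 2 (−0.81, adjusted p = 0.0942) or wild type array 2 (−0.91, adjusted p = 0.0580), and without wild type arrays 1 and 2 together (−0.95, adjusted p = 0.121).

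Of 6 measured genes of the reelin pathway, the receptor gene Vldlr rose, 0 fell and 5 did not pass in ob/ob vehicle against wild type mice (median 0.53), where 9.02% of all clusters were called higher, and 0 were called without wild type arrays 1 and 2. Vldlr, a reelin receptor that also takes up lipoproteins in fat, read 12.74, 12.31 and 11.65 on VE arrays, 11.76, 12.23 and 12.69 on ob/ob vehicle arrays and 10.67, 10.96 and 11.03 on wild type arrays. It rose by 1.34 ± 0.33 (adjusted p = 0.0233), and the call was lost without ob/ob vehicle array 2 (1.34, adjusted p = 0.0754) or array 3 (1.11, adjusted p = 0.0863), wild type array 1 (1.23, adjusted p = 0.0654) or wild type arrays 1 and 2 (1.20, adjusted p = 0.150). Lrp8, the other reelin receptor, differed by 1.01 (adjusted p = 0.132), with 0.49 to 1.44 when each array was left out. Omitting ob/ob vehicle array 3 made it a call (1.44, adjusted p = 0.0356). It read 3.31 to 3.52 on VE arrays, 3.75, 4.97 and 3.07 on ob/ob vehicle arrays and 2.84 to 3.08 on wild type arrays. All but ob/ob vehicle array 2 lay below the lower quartile of all clusters, 4.21 to 4.61, and may hold background only. Of the 6, 1 rose and 2 fell in VE against wild type mice, where 12.4% of all clusters were called higher and 7.58% lower. Vldlr rose by 1.35 ± 0.33 (adjusted p = 0.0181), a call lost without VE array 1 or 2 or wild type array 1. The call was also lost after quantile normalization (0.94, adjusted p = 0.0615) and without wild type arrays 1 and 2, with a difference of 1.20.

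The adaptor Dab1 read 5.05, 5.16 and 5.36 on VE arrays, 6.00, 5.81 and 5.14 on ob/ob vehicle arrays and 7.68, 7.30 and 5.53 on wild type arrays. The integrin subunit Itga3 read 6.18 to 6.64 on VE arrays, 6.71 to 6.81 on ob/ob vehicle arrays and 9.09, 9.73 and 6.68 on wild type arrays. Both were high on wild type arrays 1 and 2, those with the highest epithelial markers, and wild type array 3 lay within the range of the ob/ob arrays. They did not pass in ob/ob vehicle mice, at −1.19 and −1.75 (adjusted p = 0.143 and 0.0939), and leaving out wild type array 3 gave calls, at −1.84 and −2.66 (adjusted p = 0.00219 and 0.000112). In VE mice they passed at −1.65 and −2.06 (adjusted p = 0.0403 and 0.0426), each call being lost without any one of 8 arrays. Without wild type arrays 1 and 2 the differences were 0.12 and 0.07 in ob/ob vehicle mice and −0.34 and −0.24 in VE mice.

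Mmrn1 varied widely within the ob/ob groups. It read 5.82, 4.79 and 3.23 on VE arrays, 4.94, 3.94 and 8.26 on ob/ob vehicle arrays and 6.68, 6.14 and 7.51 on wild type arrays. Ob/ob vehicle array 3 was the highest of all 9 arrays, and VE array 1 the highest of its group, as for Ccl21a. All VE arrays lay below all wild type arrays, by 2.16 on average (4.48-fold; SE 1.00; 95% confidence interval −4.40 to 0.07; adjusted p = 0.160). The difference was −1.06 ± 1.00 between ob/ob vehicle and wild type mice (−3.30 to 1.17; adjusted p = 0.548) and −1.10 ± 1.00 between VE and ob/ob vehicle mice (−3.33 to 1.13). Without ob/ob vehicle array 3, VE against wild type passed at the same −2.16 (adjusted p = 0.0476), ob/ob vehicle against wild type stood at −2.34 and VE against ob/ob vehicle at 0.17.

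The genes most like Mmrn1 over the 9 arrays were Vit (0.46), Cxcl9 (0.72), Ccn3 (0.72), Bmper (0.74) and Phkg1 (0.78). Vit, the matrix protein vitrin, read 7.83, 6.22 and 6.09 on VE arrays, 6.83, 5.89 and 9.75 on ob/ob vehicle arrays and 8.45, 9.19 and 9.99 on wild type arrays. Over the 6 ob/ob arrays alone, Vit (0.33), Ccn3 (0.42) and Lyve1 (0.50) were the nearest, and Ccn3 and Lyve1 were also among the 5 nearest to Ccl21a there (0.62 and 0.45). Ccn3, a matricellular protein, read 8.70, 6.82 and 6.37 on VE arrays, 7.08, 6.45 and 10.07 on ob/ob vehicle arrays and 9.0, 7.45 and 7.02 on wild type arrays. On ob/ob vehicle array 3 and VE array 1 these genes were high together, which follows from naming them for likeness over these arrays.

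Markers of immune and vascular cells were read on the same arrays, and their part in these high values was not tested. Lymphocyte markers (14 genes of T and B cells) averaged 4.87 on VE array 1, with 4.68 to 5.0 in its group, and 5.12 on ob/ob vehicle array 3, with 4.80 to 5.12 in its group and 4.55 to 4.80 in wild type mice. Markers of high endothelial venules and follicular stroma averaged 4.79 on VE array 1, the highest of its group, and 4.64 on ob/ob vehicle array 3, within 4.51 to 4.68 in its group, against 4.57 to 5.12 in wild type mice. Blood endothelial markers averaged 8.84 on VE array 1 and 8.96 on ob/ob vehicle array 3, the lowest of each group, within 8.02 to 9.35 in wild type mice. The 17 genes of lymphatic endothelial identity averaged 6.95 on VE array 1, within 6.82 to 7.11 in its group. They averaged 7.34 on ob/ob vehicle array 3, the highest of its group, against 7.21 to 7.28 in wild type mice. Prox1 was lowest of its group on VE array 1 (5.88) and highest of its group on ob/ob vehicle array 3 (7.54).

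Among lists of lymphoid and vascular cell types, 1 gene of each of 4 lists passed between ob/ob vehicle and wild type mice. With both directions counted, 14.1% of all clusters were called, and none of the 4 lists had a larger share called. By direction, 5.05% of all clusters were called lower and 9.02% higher. The shares of 1 of 8 lower (Glycam1) and 1 of 10 higher (Ccl22) lay above these, each from 1 gene. Of 8 measured genes of high endothelial venules and follicular stroma, 7 did not pass. Glycam1, a mucin ligand of L-selectin, read 3.41 to 3.73 on VE arrays and 3.44 to 3.70 on ob/ob vehicle arrays. Its wild type values were 4.97, 4.10 and 4.56. The ob/ob values lay below the lower quartile of all clusters, 4.21 to 4.61, and may hold background only. Glycam1 was 1.02 lower in ob/ob vehicle mice (adjusted p = 0.0269). That call was lost without ob/ob vehicle array 1, 2 or 3 or wild type array 1 (−1.10 to −0.80, adjusted p = 0.0589 to 0.083), and without wild type arrays 1 and 2 (−1.03, adjusted p = 0.0559). One of 14 lymphocyte genes (Cd22), 1 of 10 dendritic cell genes (Ccl22) and 1 of 13 blood endothelial genes (Plvap) rose, at 1.28, 1.04 and 1.51, and these calls were lost without wild type arrays 1 and 2. In VE against wild type mice Glycam1 was again the called gene of its list, at −0.98, and lost the call without any one of 4 arrays. There 7.58% of all clusters were called lower. Of the other lists, 13 of 14 epithelial and 2 of 8 smooth muscle genes fell in ob/ob vehicle mice, Lep was the 1 of 10 adipocyte genes that rose, and 0 of 7 mesothelial genes passed (1 at an unadjusted p under 0.05).

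Counted together, 0 of the 5 genes not chosen by level were called in ob/ob vehicle against wild type mice, where limma called 14.1% of all clusters; 1 of 5, Reln, had an unadjusted p under 0.05. One of these 5, Reln, lay lower with no overlap between those groups, as did 13.1% of clusters. In VE against wild type mice 1 of 5 was called, and it was lower, against 7.58% of clusters called lower. Reln and Mmrn1 had no overlap there and were lower, as were 17.7% of clusters. An exact permutation test of 3 against 3 arrays cannot go below p = 0.1.

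VE did not move the 6 genes past the threshold relative to ob/ob vehicle mice. Here 0 of 6 were called, against 0.0255% of all clusters, and 0 of 6 had an unadjusted p under 0.05. Flt4 alone lay lower with no overlap between the groups, as did 6.79% of clusters. The same comparison called 0 of 156 measured genes of the 13 lists, 4 of which had an unadjusted p under 0.05. Adm, at 8.33, 8.46 and 8.14 on VE arrays, 9.30, 9.53 and 8.86 on ob/ob vehicle arrays and 7.60, 8.03 and 7.29 on wild type arrays, had VE values between those of the other groups. Its difference of −0.92 ± 0.27 between VE and ob/ob vehicle mice did not pass (unadjusted p = 0.0066, adjusted p = 0.717). Because VE and wild type, VE and ob/ob vehicle, and ob/ob vehicle and wild type comparisons share arrays, their differences for a gene are not independent.

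**Figure D4:**
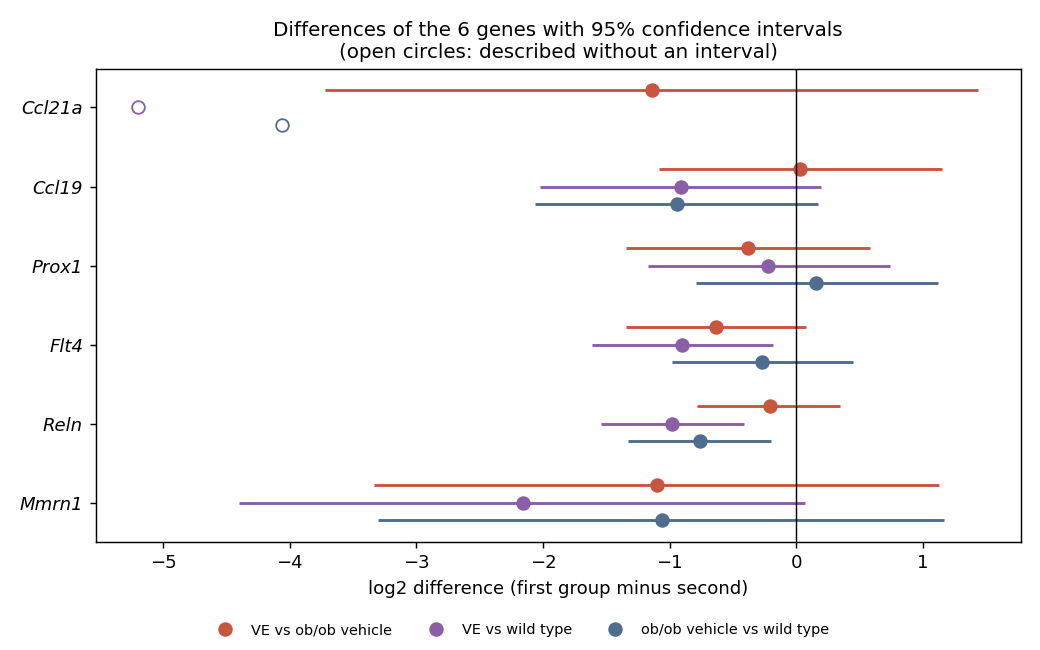
Log2 difference (x axis) of each of the 6 genes (y axis) between VE and ob/ob vehicle, VE and wild type, and ob/ob vehicle and wild type mice, with 95% confidence intervals from the fit over all arrays. Open circles are the Ccl21a differences from wild type, −5.20 and −4.06, given with no interval; the intervals of VE against ob/ob vehicle all include 0.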

How the data were processed

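The deposited values are log2 signals with 2 decimals, 1 for each cluster on each array, and were used unchanged. The submitters normalized them by SST-RMA, a probe-level model with a signal space transformation, in the software Transcriptome Analysis Console (4.0.2 per the design text, 4 in the submitters' processing notes). The genome build was not given in the sources used here. Neither detection calls nor scanner files were used.

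Of 22206 clusters, 19572 had 1 gene symbol in the platform annotation and were tested; 2634 with no name were left out. A gene with several clusters is represented by the one of highest mean (55 genes). One linear model with a mean for each of 3 groups was fitted to 9 arrays (limma 3.58.1, R 4.3.3), moderated by empirical Bayes with 4.02 prior degrees of freedom. P-values are two-sided and were adjusted by Benjamini-Hochberg over 19572 clusters in each comparison, and a call is an adjusted p under 0.05. Errors are SE of a log2 difference or SD of 3 arrays. The number of arrays limits the precision.

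The 6 genes and 13 gene lists were chosen with earlier results of these data known. The Ccl21 copies were left out of list counts. Named from each of the first 5 lists were, per comparison, the genes of highest and lowest moderated t, every called gene where 6 or fewer passed, and a set of receptors and partners; genes of like pattern were named for genes spanning over 2 log2 units. Called genes of other lists, Pi16, Vit, Ccn3 and the comparisons over ob/ob arrays were chosen after their values were seen. Alternatives were other normalizations, priors, filters, designs and thresholds, and leaving out each array. The scripts were tested on simulated data. Promoters are from RefSeq on GRCm38.p6.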

Additional observations from a re-analysis of the deposited data

How the results depend on the processing

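Between ob/ob vehicle and wild type mice 2754 clusters were called, 1814 when only these groups were fitted, 5555 at the submitters' threshold (unadjusted p under 0.05 and fold over 1.1) and 1641 to 3545 with each array left out. Between VE and ob/ob vehicle mice the count was 5, with 19 in the fit of these groups, 1 after quantile normalization, 12 with a robust prior, 893 at the submitters' threshold, 19 without wild type arrays 1 and 2 and 0 to 21 with each array left out. Between VE and wild type mice it was 3920, with 6630 at the submitters' threshold and 2314 to 4706 with each array left out. Of the 5 genes not chosen by level, the submitters' threshold called 1 in ob/ob vehicle mice (Reln, against 0) and 2 in VE mice (Reln and Flt4, against 1), and leaving out each array gave 0 to 2 in VE mice.

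Deviations from the group means correlated weakly between samples with the same replicate number. The correlations were −0.034 to 0.084 (ob/ob vehicle and wild type), 0.029 to 0.181 (VE and ob/ob vehicle) and −0.064 to 0.096 (VE and wild type). Samples with different numbers were not compared in this way, and whether a shared number marks a shared batch was not tested. With the replicate number as a block the counts were 2572, 0 and 3731.

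Signs turned in these cases, none of them a call in either setting; the cause was not tested. In ob/ob vehicle against wild type mice, where leaving out each array gave up to 0.37 for Prox1 and 1.71 for Lyve1, Prox1 (−0.20) and Lyve1 (−0.02) turned without ob/ob vehicle array 3, Ccr7 (0.09) without wild type array 3, and Lyve1 (−0.33), Itga3 (0.07), Dab1 (0.12) and Ackr4 (0.20) without wild type arrays 1 and 2. In VE against ob/ob vehicle mice, Mmrn1 (0.17), Notch1 (−0.14), Lyve1 (0.39) and Ltbr (−0.17) turned without ob/ob vehicle array 3, Ccl19 without VE array 1 (−0.06) or ob/ob vehicle array 1 (−0.04), Lyve1 without VE array 3 (0.12), and Vldlr after quantile normalization (−0.12) or without VE array 1 (−0.25), VE array 2 (−0.03) or ob/ob vehicle array 1 (−0.23). The other ends of their ranges were −1.99 for Mmrn1, 0.46 for Notch1, −1.61 for Lyve1, 0.41 for Ltbr, 0.14 for Ccl19 and 0.30 for Vldlr. In VE against wild type mice, Prox1 (0.06) and Lyve1 (−0.58) turned without VE array 1, Ackr4 (0.29) and Lyve1 (−0.99) without wild type arrays 1 and 2, Lyve1 (−0.31) and Pdpn (−0.15) without wild type array 1, Vegfc (−0.15) and Pdpn (−0.29) after quantile normalization, Vegfc (−0.13) and Pdpn (−0.01) without VE array 3, and Vegfc (−0.05) and Pdpn (−0.02) without wild type array 3. The other ends were −0.68 for Prox1, 1.15 for Lyve1, 0.28 for Vegfc and 0.26 for Pdpn. The fit without wild type arrays 1 and 2 was chosen after the data were seen, and it assumes that the lone wild type array varies like the other groups. Filtering out the dimmest 30% of clusters left no value for Ccl19. Glycam1, Ackr4 and Lrp8 had lower means than Ccl19 in every group and were left out by it too. Their calls were therefore not checked under that filter. With detection calls not used here, values near the lower quartile may hold background only.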
